A study of Mus musculus with 4 samples.

Results

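The genes described here encode the machinery that makes ribosomes in the nucleolus, together with *Myc* and *Mycn*, whose protein products are known to activate many of them. They were taken by name from a list of 49 genes, and although the rule uses no measured value, the list was drawn up with earlier results of these data known. Of these, 47 were listed with an FPKM value in the deposited tables (fragments per kilobase of coding sequence scaled to the mapped fragments of the library), out of 9779 genes with a value in all. *Fbl* and *Mrto4* were not analysed here. A ratio was computed for genes with at least 1 FPKM in either library of a comparison, which 45 of the 47 genes passed. *Polr1c* was listed at 0 in 3 libraries and at 0.0724 FPKM in the fourth, and *Dkc1* between 0 and 0.962 FPKM, so both were left out of the ratios.

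Total RNA was sequenced from LF2 cells, a female mouse embryonic stem cell (ESC) line of the 129/J strain, after 24 hr of treatment. The 4 libraries came from cells given PBS with DMSO (PBS+DMSO), PBS with 10 µM GSK-J4 (PBS+GSK-J4), 50 µg/ml L-ascorbic acid with DMSO (AA+DMSO), and the same dose of L-ascorbic acid with 10 µM GSK-J4 (AA+GSK-J4). The compound GSK-J4 enters cells and inhibits Utx and Jmjd3, which demethylate H3K27, and it can act on further JmjC domain demethylases. Vitamin C, or L-ascorbic acid (AA), serves as a cofactor for dioxygenases of that class. All 4 cultures were of the 1 line, grown on feeder cells and then passaged without them before treatment, and each condition had 1 library. The spread between replicate cultures could therefore not be estimated, no difference was tested, no p-value is given, and each ratio compares 2 libraries rather than 2 conditions. Below, the PBS pair and the AA pair name the libraries without and with AA, and values of a pair are given with DMSO first and GSK-J4 second. Where 4 values follow each other, those of the PBS pair come first.

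Ribosome production starts with transcription of a long precursor RNA from the rDNA repeats by RNA polymerase I. Small nucleolar RNAs, held in box C/D and box H/ACA particles, guide its methylation and pseudouridylation while assembly factors, helicases and GTPases fold and cleave it into the small and the large subunit. Rapidly dividing cells such as ESCs have prominent nucleoli and a high demand for new ribosomes, and Myc proteins are known to raise the output of the whole pathway.

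The libraries were checked against their labels first. All 8 ESC markers examined had a value, from 48.9 FPKM (*Dppa4*) to 867 FPKM (*Pou5f1*, the gene of Oct4) in PBS+DMSO. Their summed level was 2173 and 1940 FPKM in the DMSO libraries and 1340 and 1205 FPKM in the GSK-J4 libraries. Of 10 fibroblast markers, chosen because feeder cells were used, 4 had a value, none was at 0, and *Acta2* was the highest at 12.9 FPKM in PBS+DMSO. Their sum was 21.0 and 30.2 FPKM in the PBS pair and 19.5 and 26.2 FPKM in the AA pair, so it was higher in both GSK-J4 libraries, and its part in the results was not tested. Most of that difference was *Acta2*, at 12.9 and 21.4 FPKM in the PBS pair, while *Thy1* was at 2.79 and 1.82 FPKM there and at 1.78 and 2.13 FPKM in the AA pair. Total FPKM over all genes was 360621 and 275575 in the PBS pair and 342327 and 271205 in the AA pair.

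Ribosome biogenesis genes were lower in the GSK-J4 libraries with few exceptions. The summed level of the 47 genes was 7582 and 3989 FPKM in the PBS pair and 6680 and 3950 FPKM in the AA pair. As a share of all FPKM in the library this was 2.10%, 1.45%, 1.95% and 1.46% in the same order. *Npm1* alone made up more than any other member, and without it the shares were 0.890%, 0.643%, 0.878% and 0.641%. Both DMSO libraries were thus above both GSK-J4 libraries with or without *Npm1*. In bulk RNA, fewer cells of a type and less RNA per cell cannot be told apart.

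The ratio used for each gene was log2 of (FPKM + 1) in one library over (FPKM + 1) in the other, which understates the change of genes with low values. Without AA, the median ratio of the 45 genes for GSK-J4 over DMSO was −0.85 (range −1.21 to 0.13), beside −0.17 over the 9196 genes tested. A ratio below 0 was found in 44 of 45 members, where 63.0% of all genes tested were below 0. With AA, the median was −0.78 (range −1.20 to −0.01) beside −0.16 over 9139 genes, and 45 of 45 members were below 0, where 62.2% of all genes were. Because the median of all genes was itself below 0, the libraries were also rescaled to a common upper quartile. That moved the median of all genes up by 0.24 without AA and 0.22 with AA, and single ratios by unlike amounts. On that scale 40 of 45 members were still lower in each comparison, beside 44.0% and 44.2% of all genes. *Nop14*, *Utp20*, *Polr1a* and *Polr1e* were above 0 in both, *Ddx56* without AA only and *Wdr12* with AA only. Of these, *Polr1e* was above 0 without AA as deposited too. The distance of the member median from the median of all genes was −0.68 without AA and −0.63 with AA as deposited, and −0.65 and −0.60 after rescaling.

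**Figure D1:**
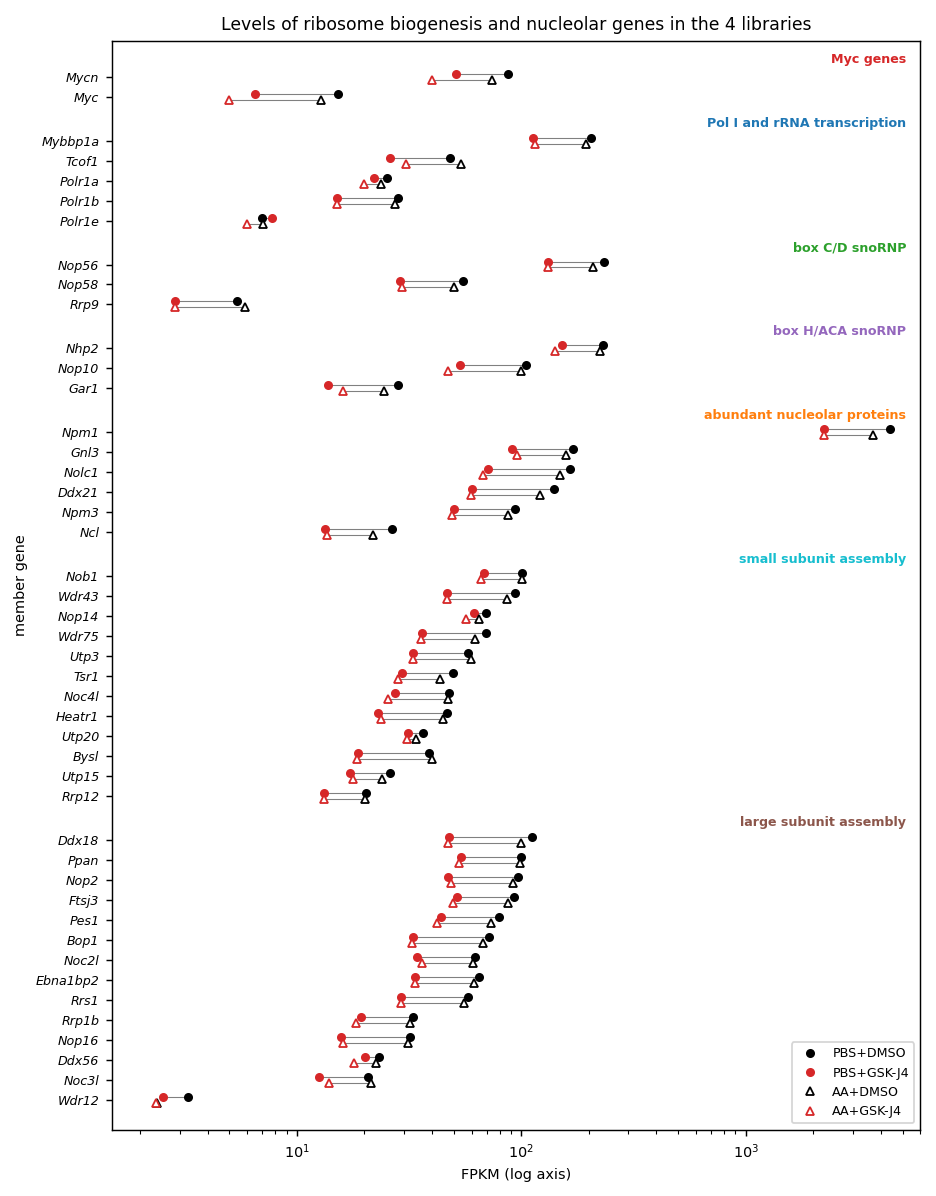
Level of the 45 members with a ratio in the 4 libraries, on a log axis of FPKM, grouped by role. Circles are the libraries without AA and triangles those with AA, black is DMSO and red is GSK-J4, and a grey line joins the DMSO and the GSK-J4 library of a pair. Red points lie to the left of black ones for every gene except *Polr1e* without AA, and *Npm1* stands furthest to the right at 4410 FPKM in PBS+DMSO.

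At least 2-fold lower in PBS+GSK-J4 than in PBS+DMSO were 7 members, *Ddx18*, *Nolc1*, *Ddx21*, *Myc*, *Bop1*, *Nop2* and *Bysl*, that is 15.6% of the 45 where 3.5% of all genes tested passed the same mark. None was 2-fold higher, which 4.96% of all genes were. In AA+GSK-J4 against AA+DMSO, 7 members were again at least 2-fold lower, *Myc*, *Nolc1*, *Ddx18*, *Bysl*, *Nop10*, *Bop1* and *Ddx21*, beside 3.38% of all genes, and none was 2-fold higher, beside 4.13%. Of the 8 genes past the mark in either comparison, 6 were past it in both, which share no library. Over all genes tested in both, 165 of the 443 past it in either (37.2%) were past it in both. That share is over genes of all levels, while most members were well expressed. The mark fell inside a dense group of values. Without AA, *Bysl* lay just inside at −1.01 and *Wdr43* just outside at −0.998, and with AA *Ddx21* was inside at −1.01 and *Nop16* the next outside at −0.91. After rescaling to the upper quartile none of the 45 reached the mark in either comparison.

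Promoter sequence was looked at because Myc proteins are known to bind the E-box CACGTG. RefSeq promoters (GRCm38.p6, from 250 bases before to 50 bases after the start) were found for 42 of the 49 genes, and 6 of these, or 14.3%, held CACGTG, where 8.09% of the 27025 genes with a promoter did. The motif reads the same on both strands. Its 6 carriers were *Mybbp1a*, *Nop2*, *Wdr43*, *Pes1*, *Tsr1* and *Utp20*. The 30 bases around it are shown for the 4 carriers with the highest mean FPKM, so that its place in each promoter can be seen, with the motif in capitals and all of them on the + strand. The motif began at +41 in *Mybbp1a*, −60 in *Nop2*, +18 in *Wdr43* and +3 in *Pes1*, counted from the transcription start:
*Mybbp1a*, chr11:72441347-72441376: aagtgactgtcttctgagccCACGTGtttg
*Nop2*, chr6:125131811-125131840: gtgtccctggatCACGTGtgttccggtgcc
*Wdr43*, chr17:71616220-71616249: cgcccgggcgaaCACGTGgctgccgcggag
*Pes1*, chr11:3963965-3963994: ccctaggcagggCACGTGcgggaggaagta
The 6 carriers had a median GSK-J4 ratio of −0.85 without AA and −0.76 with AA. The 33 members with a promoter and a ratio but without the motif had −0.85 and −0.78. The medians of the carriers and of these 33 thus differed by 0.02 with AA and by less without AA. Both sets held genes with low ratios and genes near 0. Of the carriers, *Utp20* was among the members closest to 0. Without AA, the carrier *Nop2* was past 2-fold at −1.03 and *Wdr43* just short of it at −0.998. *Nolc1* and *Ddx18*, which were past 2-fold in both comparisons, had a promoter entry without the motif, as did *Polr1e*, at 0.13 without AA. A link between the motif and the ratio was not tested. Median GC content of the promoters was 57.8% for members and 52.8% for all genes. A match is only a run of letters and says nothing about binding in these cells.

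The Myc genes were both lower with GSK-J4. *Myc* (chr15:61985364-61990290 in mm10) was listed at 15.3 and 6.49 FPKM in the PBS pair and 12.8 and 5.004 FPKM in the AA pair. Its GSK-J4 ratio was −1.12 without AA and −1.20 with AA, so 42.5% and 39.1% of the FPKM remained, and with AA it was the lowest member of all. *Mycn* (chr12:12935954-12941981), the Myc family gene with the higher level in these cells, was at 86.9 and 51.3 FPKM in the PBS pair and 73.9 and 40.2 FPKM in the AA pair. Its ratios were −0.75 and −0.86. In both genes the order of the libraries was the same, with PBS+DMSO highest, AA+DMSO next, then PBS+GSK-J4 and AA+GSK-J4 lowest. The value of *Myc* is here the sum of 2 deposited coding-sequence groups, as are those of *Tcof1* (2 groups), *Npm1* (2) and *Nolc1* (4).

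Among genes of rRNA transcription, 3 were lower by a like amount and 2 polymerase subunits lay near 0. *Mybbp1a*, a nucleolar protein that associates with RNA polymerase I and with precursor rRNA, was at 203.9 and 112 FPKM in the PBS pair and 193.9 and 115 FPKM in the AA pair, with GSK-J4 ratios of −0.85 and −0.74. *Tcof1*, which encodes treacle, a scaffold of rDNA transcription, was at 47.9, 26.0, 53.7 and 30.6 FPKM in the same order, with ratios of −0.85 and −0.79. *Polr1b*, a core subunit of the polymerase, was at 28.1, 15.1, 27.3 and 15.03 FPKM and had ratios of −0.85 and −0.82. The 2 other subunits among the members with a ratio lay nearer to 0. *Polr1a*, the largest subunit, was at 25.3, 22.0, 23.8 and 20.0 FPKM with ratios of −0.19 and −0.24, and *Polr1e* was at 6.97, 7.72, 7.05 and 6.005 FPKM with ratios of 0.13 and −0.20. Among the members with a ratio, only *Polr1e* had a higher level in a GSK-J4 library than in its DMSO partner. The difference, in the PBS pair, was 0.755 FPKM. After rescaling to the upper quartile *Polr1a* and *Polr1e* were above 0 in both comparisons, and *Mybbp1a*, *Tcof1* and *Polr1b* stayed between −0.58 and −0.49.

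Box C/D particles carry ribose methylation of rRNA. *Nop56*, one of their core proteins, was at 233 and 132 FPKM in the PBS pair and 209 and 131 FPKM in the AA pair, and its GSK-J4 ratios were −0.81 and −0.67. *Nop58*, its partner in the core, was at 55.0, 28.7, 50.3 and 29.3 FPKM with ratios of −0.91 and −0.76. *Rrp9*, which belongs to the U3 particle needed for early cleavage, was listed at 5.41, 2.86, 5.89 and 2.86 FPKM with ratios of −0.73 and −0.84. The 3 ratios lay close together in both comparisons, but the added 1 FPKM draws that of *Rrp9*, with its low level, towards 0. With AA, 48.6% of the FPKM of *Rrp9* remained, beside 62.7% for *Nop56* and 58.3% for *Nop58*. Without AA, 52.9% remained for *Rrp9*, 56.7% for *Nop56* and 52.3% for *Nop58*.

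Box H/ACA particles carry pseudouridylation and share proteins with telomerase. *Nhp2* was at 231 and 152 FPKM in the PBS pair and 224 and 142 FPKM in the AA pair, and with ratios of −0.60 and −0.66 it was the highest of the group without AA. *Nop10*, the smallest protein of the particle, was at 104, 53.1, 99.2 and 47.0 FPKM with ratios of −0.96 and −1.06. *Gar1* was at 28.2, 13.7, 24.4 and 16.0 FPKM with ratios of −0.99 and −0.58. The RNA levels of genes for 1 particle were thus not lower by equal amounts in these libraries. With AA the ratios of *Nop10* and *Gar1* lay 0.48 apart, while without AA they were −0.96 and −0.99. These differences were not tested. For *Dkc1*, the pseudouridine synthase of the particle, no ratio was computed.

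Abundant nucleolar proteins held the largest values of the set. *Npm1*, which encodes the histone-binding chaperone nucleophosmin, was at 4410 and 2231 FPKM in the PBS pair and 3706 and 2226 FPKM in the AA pair. Its ratios were −0.98 and −0.73, with 2 coding-sequence groups summed. Processed copies of *Npm1* exist in the genome, and how reads shared with them were assigned is not given in the sources used here. The GSK-J4 libraries were nearly level with each other, while the DMSO libraries differed by 705 FPKM. *Gnl3*, the gene of the nucleolar GTPase nucleostemin, was at 169.5, 91.2, 158 and 95.9 FPKM with ratios of −0.89 and −0.72. *Nolc1*, a phosphoprotein that associates with the small nucleolar particles, was at 165, 70.7, 148 and 67.5 FPKM with ratios of −1.21 and −1.12, and it was past 2-fold in both. *Ddx21*, an RNA helicase of the nucleolus, was at 139.6, 60.2, 122 and 59.9 FPKM with ratios of −1.20 and −1.01. These 2 genes also had the lowest values of the group after rescaling, between −0.92 and −0.76. *Npm3*, a relative of nucleophosmin, was at 93.8, 50.0, 87.0 and 49.2 FPKM with ratios of −0.89 and −0.81. *Ncl*, the gene of nucleolin, was listed at 26.4, 13.3, 21.8 and 13.6 FPKM with ratios of −0.94 and −0.64. The group median was −0.96 without AA and −0.77 with AA.

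The deposited gene models limit some of these levels. The locus was more than 2 times as long as the RefSeq gene for 10 of the 47 members, from 2.31 times for *Ncl* to 16.3 times for *Gnl3*. Among them, *Ncl*, *Dkc1* (2.53 times), *Wdr12* (3.10 times) and *Polr1c* (12.1 times) were each the lowest-listed member of their role, and the part of the models in these levels was not tested. For 16 of the 47 members the deposited locus overlapped another coding gene, and whether the libraries kept strand is not given in the sources used here, so reads of such neighbours cannot be told apart.

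**Figure D2:**
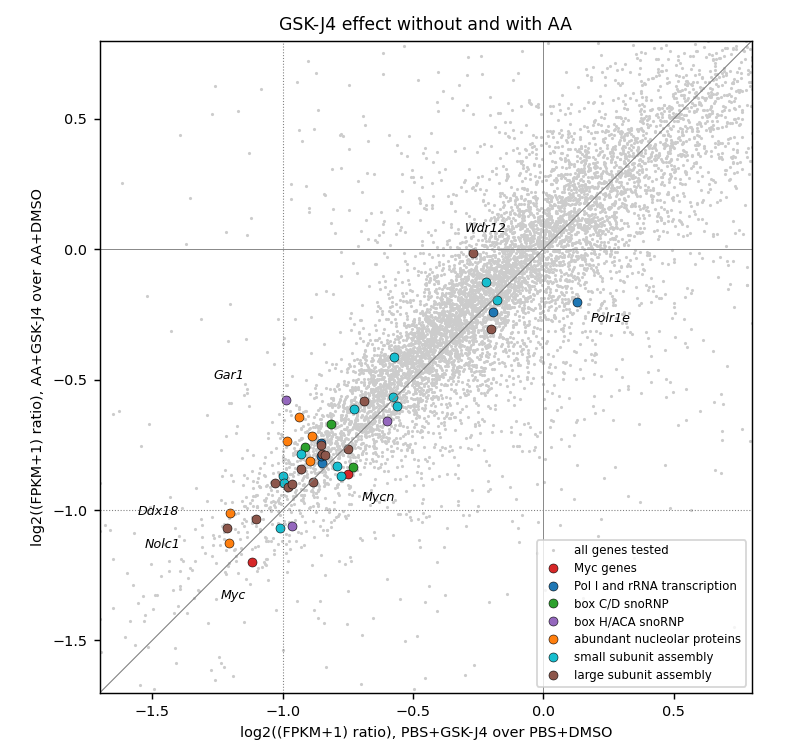
GSK-J4 ratio without AA (horizontal axis) against that with AA (vertical axis), both as log2((FPKM+1) ratio), for the 45 members coloured by role and the 8972 genes tested in both comparisons in grey. The diagonal marks equal ratios, dotted lines mark 2-fold lower, and 788 genes beyond the axes are not drawn. Most members sit in the lower left, near the diagonal, with *Polr1e*, *Wdr12* and 4 others close to 0.

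Small subunit assembly had 12 members, with a median ratio of −0.75 without AA and −0.70 with AA. *Nob1*, the endonuclease that makes the final cut of the small subunit rRNA, was at 101 and 68.2 FPKM in the PBS pair and 100.6 and 66.0 FPKM in the AA pair, with ratios of −0.56 and −0.60. *Wdr43*, a processome subunit that also takes part in rDNA transcription, was at 94.0, 46.6, 86.3 and 46.8 FPKM with ratios of −0.998 and −0.87. *Bysl*, an early-binding assembly factor, was at 38.8, 18.7, 40.0 and 18.6 FPKM with ratios of −1.01 and −1.07, and its locus includes the neighbouring gene *Ccnd3*. *Utp20*, a large scaffold protein, was at 36.4, 31.1, 33.8 and 30.9 FPKM with ratios of −0.22 and −0.13. *Bysl* was the lowest of the group in both comparisons, and *Utp20* was the highest with AA. The 8 other genes ranged from −0.99 (*Heatr1*) to −0.18 (*Nop14*) without AA and from −0.90 (*Heatr1*) to −0.19 (*Nop14*) with AA. *Nop14*, a processome component listed at 69.7 and 61.5 FPKM in the PBS pair, thus stood with *Utp20* apart from the other 10, which were all at −0.41 or lower in both comparisons.

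Large subunit assembly had 14 members with a ratio, and medians of −0.87 and −0.82. *Ddx18*, an RNA helicase, was at 111 and 47.4 FPKM in the PBS pair and 100.1 and 47.2 FPKM in the AA pair, with ratios of −1.21 and −1.07, and it was the lowest member of all without AA. *Ppan*, a factor of early large subunit particles, was at 99.8, 53.7, 99.0 and 52.9 FPKM with ratios of −0.88 and −0.89. *Nop2*, an rRNA methyltransferase, was at 96.8, 46.9, 91.6 and 48.8 FPKM with ratios of −1.03 and −0.89. It was past 2-fold without AA and not with AA, a difference that was not tested. *Bop1*, *Pes1* and *Wdr12* encode the proteins of a single complex, PeBoW, which is needed to process the large subunit rRNA. *Bop1* was at 71.5, 32.8, 67.7 and 32.5 FPKM with ratios of −1.10 and −1.03. *Pes1* was at 79.7, 43.8, 73.0 and 42.0 FPKM with ratios of −0.85 and −0.78, while *Wdr12* was listed at only 3.26, 2.53, 2.39 and 2.35 FPKM with ratios of −0.27 and −0.01. The complex thus held a member past 2-fold and the member nearest to 0 with AA. The 9 large subunit genes not given in full by the naming rule, *Pes1* among them, ranged from −0.98 (*Nop16*) to −0.20 (*Ddx56*) without AA and from −0.91 (*Nop16*) to −0.31 (*Ddx56*) with AA. *Rrs1*, another factor of large subunit assembly, listed at 57.6 and 28.99 FPKM in the PBS pair, had ratios of −0.97 and −0.90.

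**Figure D3:**
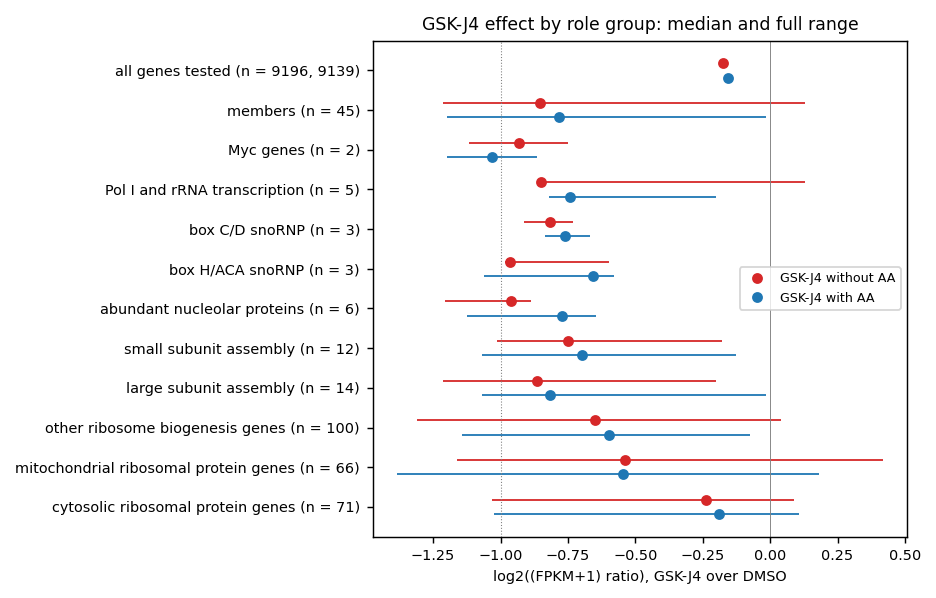
Median (points) and full range (lines) of the GSK-J4 ratio, log2((FPKM+1) ratio), for all members, for each role and for other gene lists, without AA in red and with AA in blue, with the number of genes beside each name. For all genes tested the medians alone are drawn. Every role has its medians between −1.03 and −0.66, left of the medians of all genes at −0.17 and −0.16. Cytosolic ribosomal protein genes have medians of −0.24 and −0.19 (0.05 and 0.07 after upper-quartile rescaling). Relative to the median of genes in the same decile of level, their medians were 0.34 and 0.34 (not drawn).

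Without AA the medians of the 7 roles ran from −0.96 (box H/ACA and abundant nucleolar proteins) to −0.75 (small subunit assembly), and with AA from −1.03 (Myc genes) to −0.66 (box H/ACA). Differences between roles were not tested. Across all roles, 6 members, *Polr1a*, *Polr1e*, *Utp20*, *Nop14*, *Ddx56* and *Wdr12*, were within 0.35 of 0 in both comparisons. That limit was placed in a gap in the values after they were seen. The medians of all genes, −0.17 and −0.16, also lay within it, and the share of all genes within it is not given here.

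The level of a gene has to be set beside its ratio, because over all genes the GSK-J4 ratio was lower the higher the level. When the genes tested were put into deciles of mean level, the median GSK-J4 ratio went from 0.30 in the lowest decile to −0.59 in the highest without AA, and from 0.26 to −0.53 with AA. Members were well expressed, and 38 of 45 were in the top 3 deciles in each comparison. There the median of all genes was −0.46 and −0.41, and 6.09% and 4.27% of them were at least 2-fold lower. In those top 3 deciles, 14% of genes without AA and 14.4% with AA had a ratio at or below the member median, against 7.16% and 8.46% of all genes tested. When the median of its decile was taken from each gene, the members had a median of −0.39 without AA and −0.36 with AA. Then 39 and 42 of 45 were below 0, beside 4596 of 9196 and 4569 of 9139 genes, a share fixed by construction. In the top decile, 18 members had a median of −0.88 without AA beside −0.59 for all genes there, and 16 members had −0.80 with AA beside −0.53. Genes above their decile in both comparisons included *Nop14* (0.41 and 0.34) and *Utp20* (0.25 and 0.29), and *Nolc1* was at −0.62 and −0.59.

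**Figure D4:**
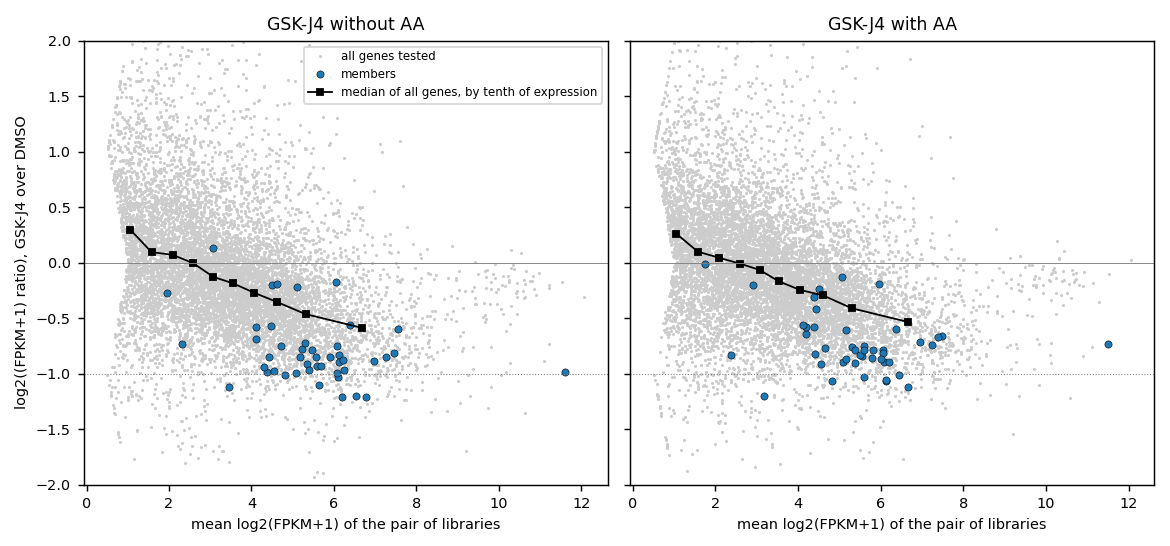
GSK-J4 ratio, log2((FPKM+1) ratio), against the mean log2(FPKM+1) of the pair of libraries, without AA on the left and with AA on the right, for all genes tested (grey) and members (blue). Black squares are the medians of all genes by decile of expression, the dotted line is 2-fold lower, and 54 genes on the left and 44 on the right lie beyond the axis and are not drawn. The squares fall from left to right, and 39 of 45 members without AA and 42 of 45 with AA lie below the median of their decile.

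Other genes of the pathway, from a separate list, were also lower with GSK-J4. Of 100 such genes with a ratio, 99 were below 0 without AA and 100 with AA, with medians of −0.65 and −0.60. After upper-quartile rescaling 91 and 92 were below 0, beside 44.0% and 44.2% of all genes. Relative to the median of their decile they had medians of −0.27 and −0.29, and 89 of 100 were below it in each comparison. At least 2-fold lower were 8 and 5 of them, beside 3.5% and 3.38% of all genes and 6.09% and 4.27% of genes in the top 3 deciles of level, and none was 2-fold higher. Past 2-fold in both were *Dis3*, *Nip7* and *Pinx1*. *Dis3*, the catalytic subunit of the RNA exosome, was at 55.9 and 21.9 FPKM in the PBS pair and 46.8 and 20.7 FPKM in the AA pair, with ratios of −1.31 and −1.14. *Nip7*, a large subunit assembly factor, was at 82.4, 38.0, 79.1 and 35.4 FPKM with ratios of −1.10 and −1.14. *Pinx1*, a nucleolar protein that also binds telomerase, was at 34.4, 16.7, 34.5 and 15.3 FPKM with ratios of −1.001 and −1.12. Genes for partners and antagonists of Myc were not all on one side of 0. Of 8 with a ratio, 5 were lower without AA (62.5%) and 6 with AA (75%), beside 63.0% and 62.2% of all genes. Their median was −0.33 and −0.30, beside −0.17 and −0.16 over all genes. *Mxd4*, which encodes a repressor that competes with Myc for Max, was at 3.63 and 10.4 FPKM in the PBS pair and 2.63 and 8.06 FPKM in the AA pair. With ratios of 1.29 and 1.32 it was the only one of the 8 past 2-fold in both. Of all genes, 4.96% and 4.13% were at least 2-fold higher.

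The structural proteins of the ribosome had median ratios closer to 0 than the members. The 71 cytosolic ribosomal protein genes with a ratio had medians of −0.24 and −0.19, which became 0.05 and 0.07 after upper-quartile rescaling. As deposited, 70 of 71 were below 0 without AA and 69 with AA, beside 63.0% and 62.2% of all genes. After rescaling 28 and 23 were, beside 44.0% and 44.2%. Relative to the median of their decile of level, their medians were 0.34 and 0.34, and 6 of 71 were below it in each comparison. At least 2-fold lower was 1 of them in each comparison (1.41%), beside 3.5% and 3.38% of all genes. The 66 mitochondrial ribosomal protein genes had medians of −0.54 and −0.55 (−0.27 and −0.30 rescaled). Of these 66, 64 were below 0 without AA and 65 with AA (57 and 62 rescaled). Relative to the median of their decile their medians were −0.19 and −0.24, with 49 and 56 below it. At least 2-fold lower were 3 in each comparison, or 4.55%. Differences between these lists and the members were not tested.

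Over the 45 members, the GSK-J4 ratios without and with AA had a Pearson's r of 0.903 and a Spearman's rho of 0.800, where rho was 0.838 over the 8972 genes tested in both, as a description across genes that share the libraries and are not independent replicates. The ratio with AA minus that without had a median of 0.07 over members and 0.03 over all those genes. It was less than 0.25 in size for 41 of 45 members and for 76.1% of all genes. Most members were well expressed, and no share for genes of like level is given here. With AA the ratio was higher for 30 members and lower for 15, where it was higher for 56.3% of all genes. *Gar1* moved most towards 0, by 0.41, followed by *Ncl* by 0.29. *Polr1e* had the largest move the other way, at −0.33. Single libraries cannot tell these differences from the variation between cultures.

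The ratios of AA over PBS lay near 0 for most members. These ratios set libraries of separate tables side by side, and the sources used here do not say whether a common scale was applied to the tables. In DMSO, the median of AA over PBS was −0.08 for members and −0.05 for the 8843 genes tested, 39 of 45 members were below 0 beside 62.4% of all genes, and none was 2-fold changed beside 1.30%. After upper-quartile rescaling 30 of 45 were below 0, beside 49.6% of all genes. The range ran from −0.33 (*Wdr12*) to 0.16 (*Tcof1*), with *Ncl* at −0.27, *Npm1* at −0.25, *Myc* at −0.24 and *Mycn* at −0.23. All 6 abundant nucleolar protein genes were below 0, also after rescaling. In GSK-J4, the median was −0.01 for members and −0.02 for the 9180 genes tested, 28 of 45 were below 0 beside 55.4% of all genes, and none was 2-fold changed beside 1.11%. After upper-quartile rescaling 18 of 45 were below 0, beside 51.1% of all genes, and the member median was 0.01. The range ran from −0.34 (*Mycn*) and −0.32 (*Myc* and *Polr1e*) to 0.21 (*Gar1*) and 0.22 (*Tcof1*). *Tcof1* was higher with AA in both backgrounds, and *Myc* and *Mycn* were lower in both, also after rescaling.

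**Figure D5:**
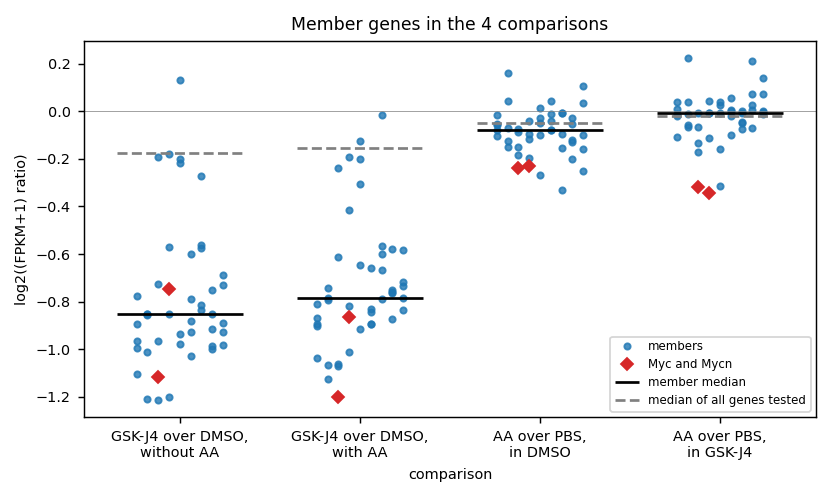
Ratio of each of the 45 members, log2((FPKM+1) ratio), in the 4 comparisons, with *Myc* and *Mycn* as red diamonds, the member median as a black bar and the median of all genes tested as a dashed bar. Horizontal position within a comparison has no meaning. The member medians are −0.85, −0.78, −0.08 and −0.01 from left to right, and upper-quartile rescaling turns the last one to 0.01.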

How the data were processed

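The authors deposited 2 tables of FPKM values per coding-sequence group, made with TopHat2 on mm10 per the labels and in the layout of Cufflinks' differential output; how the tables were scaled is not given in the sources used here. Each table holds 1 pair of libraries (PBS+DMSO with PBS+GSK-J4, AA+DMSO with AA+GSK-J4), under headings that name log10 although the values are linear FPKM. The tables' fold change, p-value and q-value columns were not used. FPKM was summed over the groups of a gene, and 157 of 9936 genes with a failed estimate were left out, none of them a member.

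Ratios were log2((FPKM + 1)/(FPKM + 1)) for genes with at least 1 FPKM in either library, with a mark of 2-fold, computed in Python 3.11.15 with numpy 2.4.6, pandas 2.3.3 and scipy 1.17.1, and drawn with matplotlib 3.10.9. The script was tested on simulated data. With 1 library per condition no test was made. The depth of each library is unknown: whole-read steps in low values did not settle it, since the best candidate depth of PBS+GSK-J4 placed 31 of 1290 low groups on steps and the next best 29. Ribosomal protein genes were found by name, without the ribosomal protein S6 kinases.

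Full values were printed for the Myc genes, members 2-fold changed in either GSK-J4 comparison, and per role the 2 with the highest mean FPKM and those with the lowest and highest mean GSK-J4 ratio. *Gar1*, *Npm3*, *Polr1a*, *Rrp9* and *Pes1* were added after their values were seen, as were partial values of *Nop14* and *Rrs1*. Of other pathway and Myc partner genes, up to 3 at each end of those past 2-fold in both comparisons were named. Locus positions are those of the tables with starts counted from 1. Promoters came from RefSeq (GRCm38.p6). Members and lists were chosen with earlier results of these data known. Alternatives were other pseudocounts, low-value filters, thresholds, scalings, centring on all genes or on the decile of expression, and other ways of combining coding-sequence groups.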

Additional observations from a re-analysis of the deposited data

Results flagged for a closer look

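*Polr1e*, a polymerase I subunit, was singled out because its GSK-J4 ratio had opposite signs in the 2 backgrounds, 0.13 without AA and −0.20 with AA. After upper-quartile rescaling the values were 0.38 and 0.02, so the signs were no longer opposite. *Gar1*, of the box H/ACA particle, was singled out because its AA ratio had opposite signs, −0.20 in DMSO and 0.21 in GSK-J4, and after the same rescaling −0.15 and 0.23. Each value compares 1 library with 1 other, both genes were listed under 30 FPKM in all libraries, and neither difference was tested.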

How the results depend on the processing

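The direction of the GSK-J4 medians and the large number of members below 0, between 39 and 45, held under every alternative run, but the size did not. The member median without AA was −0.68 when centred on all genes, −0.58 after upper-quartile scaling, −0.48 after scaling to equal totals and −0.39 relative to the decile of expression, and with AA it was −0.63, −0.53, −0.45 and −0.36. The 7 members at least 2-fold lower without AA became 11 with a pseudocount of 0.1, 4 with a pseudocount of 5, 3 when centred, 0 under each scaling and 0 relative to the decile, and 36 at a 1.5-fold mark. The 7 with AA became 3 with a pseudocount of 5, 1 when centred, 0 under each scaling, 1 relative to the decile and 35 at a 1.5-fold mark. The AA median in DMSO was −0.032 when centred, −0.025 after upper-quartile scaling, −0.0051 with equal totals and −0.018 relative to the decile. The AA median in GSK-J4 changed sign to 0.011 when centred, 0.0090 after upper-quartile scaling, 0.014 with equal totals and 0.0025 relative to the decile. Each scaling shifts all ratios by construction; why the libraries differ in total FPKM was not tested. The median of all genes moved up by 0.24 and 0.22 for the upper quartile and 0.33 and 0.29 for the totals, without and with AA. The other alternatives, pseudocounts, low-value filters, failed estimates kept and 1 coding-sequence group per gene, left each median within the 95% binomial interval of the median over members, and members are not replicates. No paired analysis was possible because the labels give no replicate numbers, and with 1 library per condition none could be left out. An additive fit of GSK-J4 and AA over the 4 libraries, which would take any interaction of the 2 as error and leave 1 residual degree of freedom, was not run. Depth is unknown, which limits what can be said of *Wdr12*, *Rrp9*, *Polr1e* and *Myc*, the members with the lowest values.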
